A study of Mus musculus with 12 samples.

Results

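The CXC chemokines and the Cx3cl1 axis were followed through bone marrow-derived macrophages (BMDMs) and through fibroblasts grown in medium that such macrophages had conditioned. The group holds 10 genes, chosen by symbol from the gene count table: Cxcl1, Cxcl2, Cxcl5, Cxcl10, Cxcl12, Cxcl14, Cxcl16, Pf4, Cx3cl1 and Cx3cr1. They are 10 of 32544 genes in the table, and all 10 were among the 14285 genes that passed the filter on low counts. Poly(A) RNA of 12 libraries was sequenced, 3 in each of 4 groups. BMDM WT came from mice with LysMCre, and BMDM PHD2cko from mice that carried in addition the conditional knockout of PHD2, so both groups of donors share the lysozyme M-driven Cre, which acts in myeloid cells. RNA of BMDMs was taken 24 h after seeding. The other groups were NIH/3T3 cells, an established mouse fibroblast line, kept for 72 h in medium from BMDM WT (3T3 in WT medium) or from BMDM PHD2cko (3T3 in PHD2cko medium). The medium itself held L929-conditioned medium, and the sources used here do not name whether the sequenced fibroblasts had medium made in normal oxygen or in hypoxia. Nothing in the sources says that the 3 libraries of a group came from separate mice or cultures, so the p-values measure only the spread between these libraries, which may be technical.

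Chemokines are small secreted proteins that steer leukocytes through G protein-coupled receptors. The CXC ligands with an ELR motif (Cxcl1, Cxcl2, Cxcl5) draw neutrophils through CXCR2, Cxcl10 draws T and NK cells through CXCR3, and Cxcl12 holds and recruits cells through CXCR4 while ACKR3 takes it up. Cxcl16 and Cx3cl1 (fractalkine) are made as membrane-bound proteins that ADAM10 and ADAM17 can shed, and Cx3cr1 is the Cx3cl1 receptor of monocytes and macrophages. PHD2, encoded by Egln1, is the oxygen-sensing prolyl hydroxylase that marks the HIF alpha subunits for degradation.

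The libraries held 15516465 to 25199770 estimated counts. Levels are given in CPM (counts scaled to a common library size, after TMM), as mean ± SD over 3 libraries. As a check of the labels, Egln1 stood at 55.4 ± 0.574 CPM in BMDM WT and at 69.6 ± 1.77 CPM in BMDM PHD2cko, so the targeted gene had more mRNA with the knockout label than without it (log2 fold change 0.33, adjusted p = 0.00203). The count sums the whole gene and does not separate the exons, so it cannot show whether the targeted part was lost, and the libraries are called labelled PHD2cko below. Of 12 genes known as HIF targets, a list drawn up after the Egln1 values were seen, 10 were higher with the PHD2cko label and none lower, where 3.38% of all genes tested were higher and 3.35% lower. Among them were Ankrd37 (log2 fold change 4.01, adjusted p = 9.7e-08), Egln3 (1.96), Pdk1 (0.96) and Bnip3 (0.85), while Vegfa and Car9 did not pass. Of the 23 macrophage markers, all exceeded 3 counts in every BMDM library, and the 12 fibroblast markers summed to 2.31 to 7.65 CPM there. In the 3T3 libraries the fibroblast markers summed to 21078 to 23212 CPM in WT medium and to 26830 to 27876 CPM in PHD2cko medium. In the BMDM libraries neutrophil markers summed to at most 0.789 CPM, with Ly6g, Elane and Retnlg at 0, and T and NK cell markers to at most 0.577 CPM, with Cd3e and Ncr1 at 0. Dendritic cell markers summed to 1.63 to 3.04 CPM and endothelial markers to 42.2 to 61.9 CPM. The endothelial sum was mostly Pecam1, at 38 ± 5.91 CPM in BMDM WT and 38.6 ± 4.65 CPM in BMDM PHD2cko. Pecam1 stood at 36.6 ± 10.9 CPM in 3T3 in WT medium too. Cdh5 had at most 4 counts and Tek at most 3 in any BMDM library. Of the markers tested, Kdr (endothelial) was lower in the libraries labelled PHD2cko (17.5 ± 0.0663 against 8.64 ± 0.306 CPM, adjusted p = 0.00657), and Col6a1 (fibroblast) was higher (0.327 ± 0.352 against 1.36 ± 0.267 CPM, adjusted p = 0.0107). Col6a1 had 3, 12 and 1 counts in BMDM WT. Among BMDMs it met the minimum of the low-count filter only in PHD2cko, so nothing is read from its call. The other 11 fibroblast markers did not pass. B cell markers summed to 2.53 to 3.1 CPM in BMDM WT and to 3.83 to 4.67 CPM in BMDM PHD2cko, mostly Cd79b, with Pax5 at 0. The part of such cells in the macrophage results was not tested. Replicate 1 of 3T3 in WT medium stood apart: over all genes its counts differed from those of replicates 2 and 3 with chi-square values, divided by the degrees of freedom, of 23.1 and 24.9, while those 2 differed by 2.29 on that measure. Without it the genes higher in PHD2cko medium went from 1276 to 1683 and those lower from 964 to 1074, and values of the members without it stand beside the fibroblast results.

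In the genome (GRCm38, GENCODE M21) 5 of the 10 genes lie on chromosome 5. Cxcl5 (chr5:90759360-90761624), Pf4 (chr5:90772435-90773383), Cxcl1 (chr5:90891241-90893115) and Cxcl2 (chr5:90903871-90905938) lie within 144.5 kb of each other, counted from the start of Cxcl5 to that of Cxcl2, and Cxcl10 (chr5:92346638-92348889) lies on the other strand further along. Cxcl12 is on chromosome 6, Cx3cl1 on 8, Cx3cr1 on 9, Cxcl16 on 11 and Cxcl14 on 13. Upstream sequence is shown for 3 genes. Of the 10 genes, Cxcl10 had the largest change past the test in the macrophages. The neighbours Cxcl1 and Cxcl2 start 12.63 kb apart, and their transcripts sat in different cell types. Capitals mark matches to the NF-kB consensus and to the interferon-stimulated response element (ISRE) letters GAAANNGAAA, searched on both strands. All sequences are from RefSeq (GRCm38.p6), written 5′ to 3′ on the gene's strand, and bases are counted from the RefSeq start. That start is 90891245 for Cxcl1 and 90903899 for Cxcl2, which is 4 and 28 bases downstream of the GENCODE start given above.
Cxcl10, 250 bases up to the start (chr5:92348890-92349139, minus strand): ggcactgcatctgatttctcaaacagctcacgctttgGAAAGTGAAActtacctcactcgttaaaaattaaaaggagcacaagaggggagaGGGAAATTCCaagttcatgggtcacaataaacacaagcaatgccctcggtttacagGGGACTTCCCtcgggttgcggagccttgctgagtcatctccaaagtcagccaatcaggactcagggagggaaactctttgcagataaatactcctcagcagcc
Cxcl1, 120 to 41 bases before the start (chr5:90891125-90891204, plus strand): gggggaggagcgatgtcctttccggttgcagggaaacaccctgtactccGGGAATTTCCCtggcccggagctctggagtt
Cxcl2, 120 to 41 bases before the start (chr5:90903779-90903858, plus strand): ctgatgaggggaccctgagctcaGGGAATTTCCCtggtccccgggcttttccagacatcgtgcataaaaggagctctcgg

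The ISRE letters stood 213 to 204 bases before the Cxcl10 start, and the NF-kB matches there began 159 and 103 bases before it. Cxcl1 and Cxcl2 hold the same marked run, in which the NF-kB consensus matches at neighbouring positions, offset by 1 base. The RefSeq table held windows for 8 of the 10 genes. Over 250 bases before the start, the ISRE letters were found in 2 of these 8 (Cxcl10 and Cxcl14) and in 2.98% of all 32851 windows, the NF-kB consensus in 3 of 8 (Cxcl1, Cxcl2 and Cxcl10) and in 3.9% of all windows, and the hypoxia response core (ACGTG or GCGTG) in 4 of 8 (Cxcl1, Cxcl2, Cxcl10 and Cxcl14) and in 38.6% of all windows. A match of letters is a description and was not tested as a site.

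BMDM WT and 3T3 in WT medium were compared to ask which cell type holds which chemokine transcript. The macrophages carried Cxcl16, Cx3cr1, Cxcl10, Pf4, Cxcl14 and Cxcl2, and the fibroblasts carried Cxcl12, Cx3cl1, Cxcl5 and Cxcl1. All 10 genes passed an adjusted p of 0.05 (edgeR quasi-likelihood test), 6 of them higher in BMDMs and 4 lower. Of all genes tested, 40.4% were higher and 44.9% lower by the same rule, so a call between these cell types was common. A gene high in 1 cell type and near 0 in the other passes the filter through the first, so nothing is read from the count.

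Cxcl16 was the most abundant member in macrophages, at 348, 349 and 346 CPM in BMDM WT replicates 1 to 3 against 0.458, 0.508 and 0.476 CPM in 3T3 in WT medium (log2 difference 9.47, SE 0.303, adjusted p = 3.1e-12). Cx3cr1 reached 95.4 ± 4.91 CPM in BMDM WT and 0.588 ± 0.233 CPM in the fibroblasts, a log2 difference of 7.25. Cxcl10 stood at 18.8 ± 2.05 CPM against 0.193 ± 0.0774 CPM. None of these groups overlapped. Pf4, the platelet factor that macrophages can also express, had 748 summed counts in BMDM WT against 3 in 3T3 in WT medium, a ratio of 341 with an exact 95% counting interval of 116.2 to 1657. Cxcl14 had no count in any fibroblast library in WT medium, and with a floor of 3 counts a library it was at least 33.8-fold higher in BMDM WT. Cxcl2 had none either and was at least 20.7-fold higher. These intervals and floors reflect counting error alone.

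The fibroblast side was led by Cxcl12, with 223, 237 and 242 CPM in 3T3 in WT medium against 0.26, 0.121 and 0.426 CPM in BMDM WT (log2 difference -9.73, SE 0.131, adjusted p = 2.3e-15). Cx3cl1 stood at 36.8 ± 2.16 CPM against 0.679 ± 0.252 CPM, a log2 difference of -5.74. Cxcl5 had 0 counts in all 3 BMDM WT libraries and 341 to 628 in the fibroblasts, so it was at least 125-fold lower in macrophages. Cxcl1 was the weakest of the 4, at 1.64 ± 0.301 CPM in fibroblasts and 0.246 ± 0.1 CPM in BMDM WT (log2 difference -2.69). Cxcl1, Cxcl2 and Cxcl3 are related in sequence, so reads that fit more than 1 of them could be split by the counting and their values are less certain.

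To compare genes with each other, CPM was divided by the union length of the annotated exons. In BMDM WT the order in CPM per kb was Cxcl16 (115.1 ± 0.587), Pf4 (21.5 ± 0.966), Cx3cr1 (21.2 ± 1.09), Cxcl10 (8.34 ± 0.911), Cxcl14 (2.59 ± 0.11) and Cxcl2 (1.4 ± 0.203), with the other 4 below 0.25 in every library. Pf4 and Cx3cr1 overlapped, and the other neighbours among these 6 did not. In 3T3 in WT medium the order was Cxcl12 (28.6 ± 1.26), Cxcl5 (12.5 ± 3), Cx3cl1 (9.35 ± 0.548) and Cxcl1 (0.877 ± 0.16), and Cxcl5 and Cx3cl1 overlapped.

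**Figure D1:**
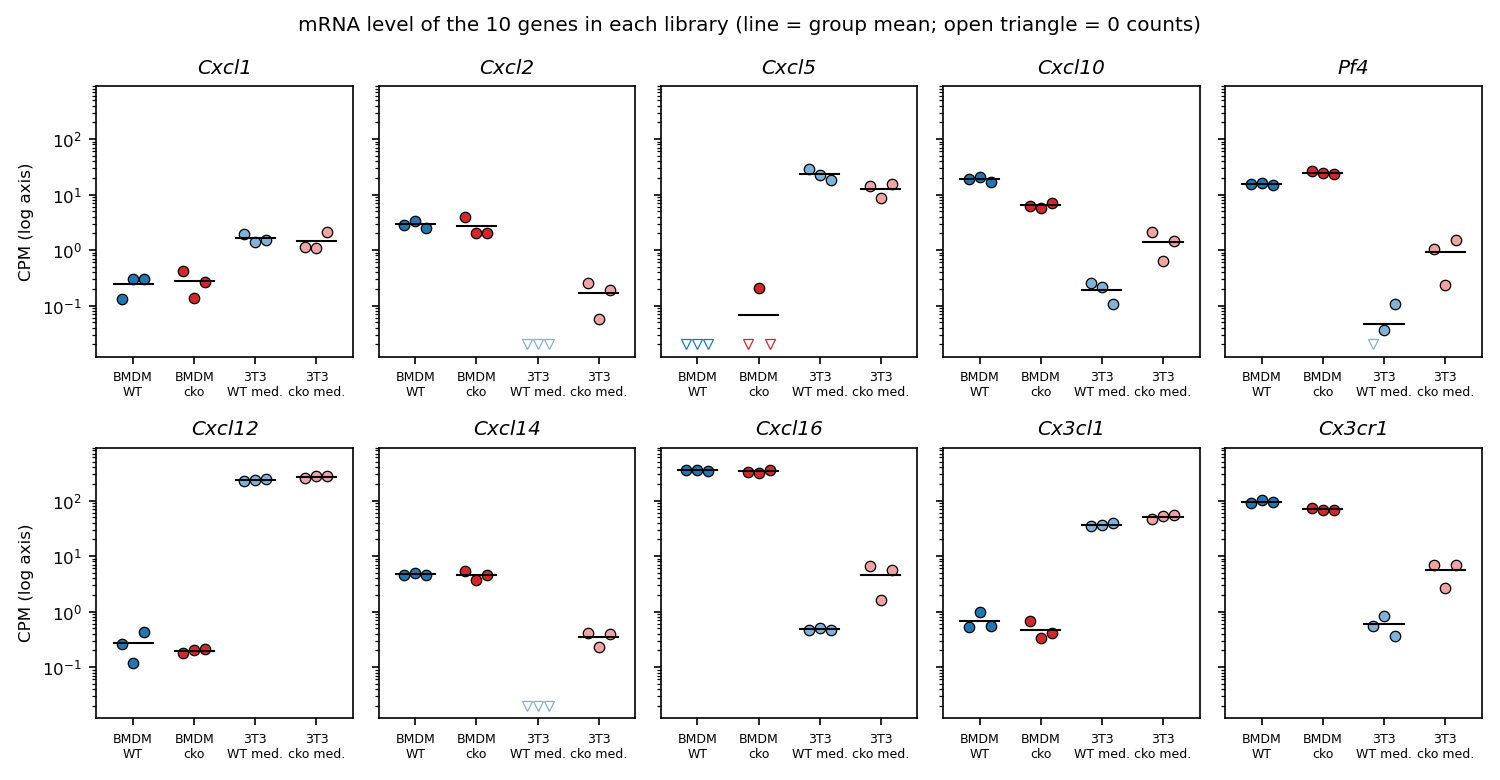
CPM of the 10 genes (log axis) in each of the 12 libraries, 1 panel a gene and 4 groups a panel (cko, labelled PHD2cko; med., medium). Filled points are libraries, lines group means and open triangles libraries with 0 counts. The 6 macrophage genes stand high on the left of their panels and the 4 fibroblast genes on the right, and the 6 macrophage genes are all higher in 3T3 in PHD2cko medium than in WT medium.

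The receptors sat opposite their ligands for Cxcl12 and for Cx3cl1. Cxcr4 reached 439.6 ± 7.27 CPM in BMDM WT and 0.0829 ± 0.0538 CPM in 3T3 in WT medium, while its ligand Cxcl12 was the fibroblast transcript. Ackr3, the scavenging Cxcl12 receptor, was the reverse, with 0 counts in BMDM WT and 23.3 ± 0.739 CPM in the fibroblasts, at least 125-fold lower in macrophages. In the same way Cx3cl1 was a fibroblast and Cx3cr1 a macrophage transcript. Cxcr3, the receptor of Cxcl10, was present in BMDM WT at 7.14 ± 0.0992 CPM and had 0 counts in 3T3 in WT medium. Cxcr6, the Cxcl16 receptor, stood at 0.308 ± 0.115 CPM in BMDM WT and at 0.172 ± 0.107 CPM in fibroblasts and did not pass the filter. Of 10 receptors 6 were tested, and 2 were higher and 2 lower in BMDM WT, beside 40.4% and 44.9% of all genes tested, so nothing is read from that count. The sheddases Adam10 and Adam17 were both higher in macrophages, at 207.3 ± 4.47 and 388.5 ± 14.5 CPM against 102.5 ± 4.28 and 89.4 ± 5.71 CPM, and Mmp2 and Mmp9, which can trim chemokines, were higher in fibroblasts.

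**Figure D2:**
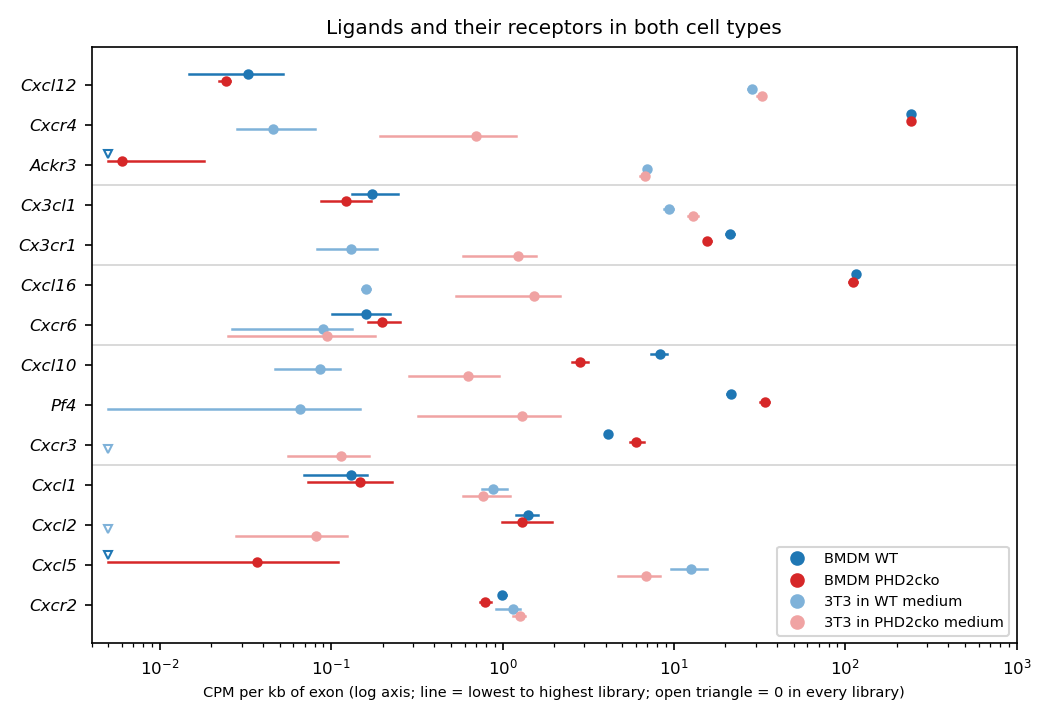
CPM per kb of exon (log axis) for ligands and the receptors they use, in 5 blocks: Cxcl12 with Cxcr4 and Ackr3, Cx3cl1 with Cx3cr1, Cxcl16 with Cxcr6, Cxcl10 and Pf4 with Cxcr3, and the CXCR2 ligands with Cxcr2. Points are means of 3 libraries, lines run from the lowest to the highest library, and open triangles mark 0 in every library. Cxcr4 lies at 243.1 CPM per kb in BMDM WT and at 0.0459 in 3T3 in WT medium, opposite to Cxcl12.

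BMDM PHD2cko was compared with BMDM WT to ask how the PHD2 label moved these genes in macrophages. Cxcl10 was lower and Pf4 was higher in the libraries labelled PHD2cko, and the other 8 did not pass the test. That is 1 of 10 genes higher and 1 lower, where 3.38% of all genes tested were higher and 3.35% lower. Cxcl1, Cxcl5, Cxcl12 and Cx3cl1 passed the filter on low counts only through the 3T3 libraries, so 6 members could be judged in BMDMs, with a median log2 fold change of -0.09 against 0.0048 over the 12282 genes that passed the filter there.

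Cxcl10 had 296, 340 and 272 counts in BMDM WT and 102, 84 and 136 in BMDM PHD2cko, which is 19.2, 20.6 and 16.5 CPM against 6.19, 5.74 and 7.14 CPM. Every library labelled PHD2cko lay below every WT library. The log2 fold change was -1.56 (SE 0.198, adjusted p = 3.5e-04). The other interferon-inducible CXCR3 ligands, Cxcl9 and Cxcl11, were too low for the filter. GENCODE M21 lists mouse Cxcl11 as a polymorphic pseudogene, so its transcript need not stand for a ligand. Cxcl11 had 7, 8 and 7 counts in BMDM WT and 1, 0 and 2 in BMDM PHD2cko, a ratio of 7.61 in favour of WT with an exact 95% counting interval of 2.29 to 39.7, and Cxcl9 had 8, 10 and 5 against 3, 5 and 5.

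Pf4 stood at 15.6, 16.1 and 14.7 CPM in BMDM WT and at 26, 24.6 and 23 CPM in BMDM PHD2cko, with no overlap (log2 fold change 0.67, SE 0.174, adjusted p = 0.0387). Leaving out any of the 6 BMDM libraries kept the value between 0.62 and 0.71 and ended the call, with adjusted p from 0.0936 to 0.171. Platelet and megakaryocyte markers summed to 3.27 to 4.8 CPM in BMDM WT and 3.07 to 4.04 CPM in BMDM PHD2cko, with Gp9, Gp1bb and Gp5 at 3 counts or fewer in each library. Ppbp, the platelet chemokine beside Pf4, had 0, 1 and 4 counts against 3, 6 and 5.

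Cx3cr1 stood at 91.3, 100.9 and 94.2 CPM in BMDM WT and at 74.4, 67.8 and 68.4 CPM in BMDM PHD2cko. The groups did not overlap, as for 31.9% of all genes tested in this comparison, and the difference did not pass the test (log2 fold change -0.44, SE 0.146, adjusted p = 0.102). It passed with limma-voom (adjusted p = 0.0236) and when the 6 BMDM libraries were fitted alone (9.3e-06). The fit of the 6 libraries alone called 1202 genes higher and 1332 lower of 12282, against 483 and 478 of 14285 in the main fit. The most abundant member, Cxcl16, stood at 348 ± 1.77 CPM in BMDM WT and 333.5 ± 17.9 CPM in BMDM PHD2cko (log2 fold change -0.06, SE 0.162, adjusted p = 0.919). Cxcl14 was at 4.73 ± 0.201 against 4.49 ± 0.796 CPM and Cxcl2 at 2.89 ± 0.419 against 2.7 ± 1.13 CPM. Cxcl1, Cxcl12 and Cx3cl1 stayed below 1 CPM in every BMDM library, and Cxcl5 had 3 counts or fewer in each, so no fold is given for it.

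Of the receptors, Cxcr2, Cxcr3 and Cxcr4 passed the filter in the BMDM libraries, and 1 of these 3 was higher in the libraries labelled PHD2cko, beside 3.38% of all genes tested. It was Cxcr3, at 7.21, 7.02 and 7.18 CPM against 9.59, 11.6 and 10.1 CPM (log2 fold change 0.54, SE 0.141, adjusted p = 0.045). Of the ligands plotted with Cxcr3, Cxcl10 went in the opposite direction (log2 fold change -1.56) and Pf4 in the same direction (0.67). Cxcr4 was at 439.6 ± 7.27 and 437.5 ± 17.1 CPM. Among 6 tested proteases and binding partners 2 were higher, Mmp9 (8, 3 and 4 counts against 26, 19 and 26, log2 fold change 2.16, adjusted p = 0.00942) and Mmp2 (log2 fold change 0.90, adjusted p = 0.0449), both below 2 CPM. Among BMDMs these 2 genes met the minimum of the filter only in PHD2cko, so nothing is read from the count of 2, and neither Adam10 nor Adam17 passed. Of 8 other ligands only Cxcl3 and Cxcl15 were tested, and neither passed.

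3T3 in PHD2cko medium was compared with 3T3 in WT medium to ask how the medium moved these genes in fibroblasts. Cxcl2, Cxcl14 and Pf4 passed the filter on low counts only through the BMDM libraries, so their counts in fibroblasts are given below without a test. Of the other 7 genes, Cx3cl1, Cxcl12, Cxcl10, Cxcl16 and Cx3cr1 were higher in PHD2cko medium, Cxcl5 was lower and Cxcl1 did not pass, where 8.93% of all genes tested were higher and 6.75% lower. Cxcl10, Cxcl16 and Cx3cr1 met the minimum among the fibroblasts only in PHD2cko medium and were in the fit of all 12 libraries through both BMDM groups, so nothing is read from the number of genes called. With the 6 fibroblast libraries filtered and fitted alone, 7 members were tested, 4 of them higher and 0 lower, where 4.23% of all genes in that fit were higher and 2.59% lower. Cxcl10, Cxcl16 and Cx3cr1 entered that fit only through PHD2cko medium, the group where they are high. Nothing is read from that count either. The groups did not overlap for 6 of the 7 genes, as for 31.9% of all genes tested.

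Macrophage markers moved with these results. Summed over 23 markers as counts over each library's total, without TMM, the 3T3 libraries in WT medium held 0.062, 0.0674 and 0.0715% of the level in BMDM WT, and those in PHD2cko medium 2.37% (95% Wilson interval 2.33 to 2.4), 0.537% (0.52 to 0.555) and 2.13% (2.1 to 2.16) of the level in BMDM PHD2cko for replicates 1, 2 and 3. The means were 0.0669 ± 0.00478% and 1.68 ± 0.995%, and the two-sided exact permutation p was 0.1, the smallest that 3 against 3 libraries can give. After TMM the shares in PHD2cko medium were 1.92, 0.439 and 1.74%. The markers did not share a common value. In replicate 1 in PHD2cko medium they ranged from 1.23% (Ctss) to 15.6% (Cd14) of their BMDM level, with a median of 3.45%. In bulk RNA, more cells of a type and more RNA per cell cannot be told apart.

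The membrane-bound ligand Cx3cl1 was at 34.6, 36.8 and 38.9 CPM in WT medium and at 47.4, 51.8 and 54.1 CPM in PHD2cko medium. Each library in PHD2cko medium lay above each in WT medium (log2 fold change 0.48, SE 0.0785, adjusted p = 0.00144). Its level in BMDM PHD2cko was 0.476 ± 0.17 CPM, far under that of the fibroblasts, and with the macrophage share times the mean BMDM profile subtracted from the counts the log2 fold change was 0.51 (adjusted p = 0.00108). The Cx3cl1 call in the main fit held without each of the 6 libraries, and without 3T3 in WT medium replicate 1 the value was 0.46 (adjusted p = 8.9e-04). Cxcl12 rose less, from 222.5, 237.2 and 242.3 CPM to 250.3, 275.1 and 277.8 CPM (log2 fold change 0.19, SE 0.0603, adjusted p = 0.0473). Without 3T3 in WT medium replicate 1 it was 0.18 (adjusted p = 0.0144). Its call was lost without 3T3 in WT medium replicate 2 (adjusted p = 0.0806) and without 3T3 in PHD2cko medium replicate 2 (0.112) or 3 (0.17), with the genes below the filter included (0.0635) and with the 6 libraries fitted alone (0.103).

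Cxcl5, the neutrophil-drawing ligand with 3 counts or fewer in every BMDM library, fell from 29.2, 22.8 and 18 CPM in WT medium to 14.2, 8.74 and 15.4 CPM in PHD2cko medium. The lowest library in WT medium lay above the highest in PHD2cko medium (log2 fold change -0.86, SE 0.227, adjusted p = 0.0287). The highest value is that of replicate 1, the library that stood apart, and without it the log2 fold change was -0.65 (adjusted p = 0.0635). Without 3T3 in WT medium replicate 2 the adjusted p was 0.0649, without 3T3 in PHD2cko medium replicate 1 or 2 it was 0.0635 and 0.06, and with the 6 libraries fitted alone 0.0787. Cxcl1, of the same receptor, was at 1.98, 1.41 and 1.53 CPM against 1.13, 1.1 and 2.08 CPM, overlapping (adjusted p = 0.759).

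**Figure D3:**
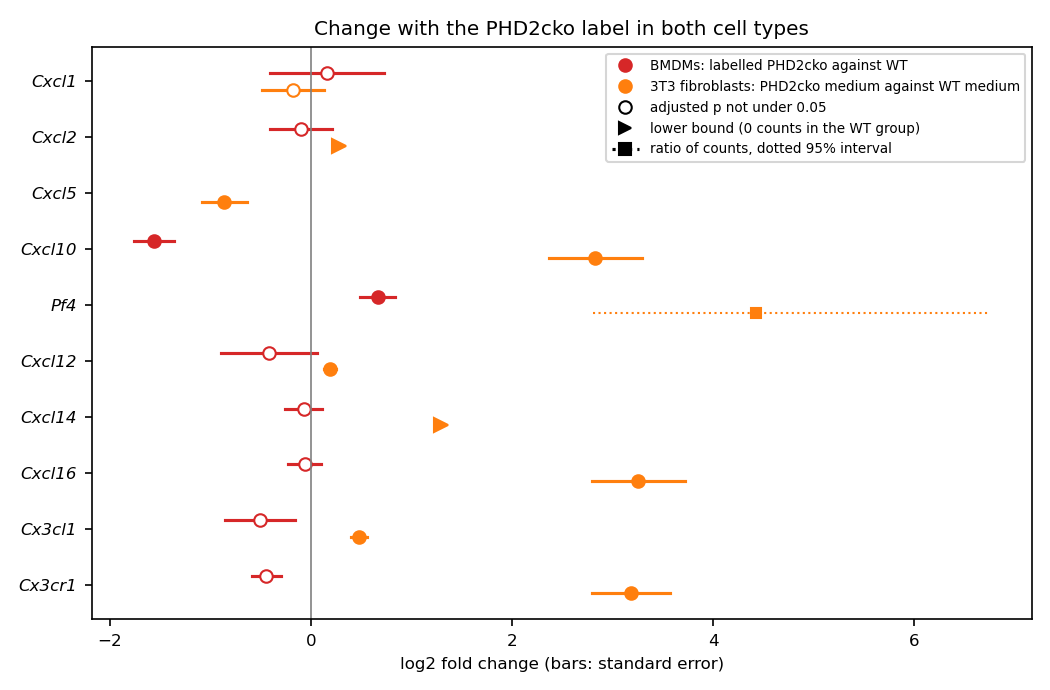
Log2 fold change with the PHD2cko label for the 10 genes, in BMDMs (red) and in 3T3 fibroblasts (orange), with standard errors. Filled circles passed the test, triangles are lower bounds against 0 counts, and the square with a dotted line is the Pf4 ratio of counts with its 95% interval, so Cxcl2, Cxcl14 and Pf4 carry no test in fibroblasts. Cxcl10 lies at -1.56 in BMDMs and at 2.83 in fibroblasts, and Cxcl5 in BMDMs has no point because both groups had 3 counts or fewer a library.

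The 6 macrophage transcripts were low in the fibroblasts and higher in PHD2cko medium. Cx3cr1 was at 0.56, 0.834 and 0.37 CPM in WT medium and at 7.04, 2.66 and 7.02 CPM in PHD2cko medium (log2 fold change 3.19, SE 0.384, adjusted p = 2.2e-04). Cxcl16 was at 0.458, 0.508 and 0.476 CPM and at 6.53, 1.62 and 5.62 CPM (log2 fold change 3.26, SE 0.462, adjusted p = 5.7e-04). Cxcl10 was at 0.254, 0.218 and 0.106 CPM and at 2.16, 0.636 and 1.45 CPM (log2 fold change 2.83, SE 0.467, adjusted p = 0.00145). Without 3T3 in WT medium replicate 1 the log2 fold changes were 3.15 for Cx3cr1, 3.25 for Cxcl16 and 3.04 for Cxcl10, and all 3 passed. For all 3 genes, as for the marker share, PHD2cko medium replicate 2 was the lowest library of its group and still lay above every library in WT medium. Pf4 had 0, 1 and 2 counts in WT medium and 20, 4 and 32 in PHD2cko medium, a ratio of 21.5 with an exact 95% counting interval of 6.99 to 107.5. Platelet and megakaryocyte markers summed to 23.8 to 28.8 CPM in WT medium and 22.7 to 24.5 CPM in PHD2cko medium. Cxcl14 had 0 counts in WT medium and 8, 4 and 8 in PHD2cko medium, at least 2.45-fold higher. Cxcl2 had 0 counts and then 5, 1 and 4, at least 1.21-fold higher.

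Set against BMDM PHD2cko, the 6 genes did not share a common ratio. These percentages, like the marker share, are of counts over each library's total without TMM. Cxcl16 in 3T3 in PHD2cko medium stood at 2.42, 0.595 and 2.07% of its BMDM PHD2cko level, beside a marker share of 2.37, 0.537 and 2.13% in the same libraries. After TMM both were lower, at 1.96, 0.486 and 1.69% for Cxcl16 beside 1.92, 0.439 and 1.74% for the markers. Cxcl10 stood at 41.9, 12.3 and 28% of its BMDM PHD2cko level, above each of the 23 macrophage markers in all 3 libraries, and at 34, 10 and 22.9% after TMM. Cx3cr1 stood at 12.4, 4.64 and 12.3%, with 1 of the 23 markers above it in each library. Cxcl14 (11.3, 6.3 and 10.6%), Cxcl2 (11.7, 2.62 and 8.78%, on 5, 1 and 4 counts) and Pf4 (5.16, 1.15 and 7.73%) lay above Cxcl16 and below Cxcl10 in each library. With the macrophage share subtracted, the log2 fold change of Cxcl16 was -1.61 and no longer passed (adjusted p = 0.0679), while Cxcl10 (2.80, adjusted p = 0.00174) and Cx3cr1 (3.06, adjusted p = 2.4e-04) kept theirs. The subtraction assumes that such RNA has the profile of BMDM PHD2cko after 24 h. In replicate 1 in PHD2cko medium the median marker stood at 3.45%, above the summed share of 2.37%. Markers above the share would keep a remainder too, so a kept call does not set Cxcl10 or Cx3cr1 apart from macrophage RNA. The part of macrophage RNA in the fibroblast values was not tested beyond this subtraction.

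**Figure D4:**
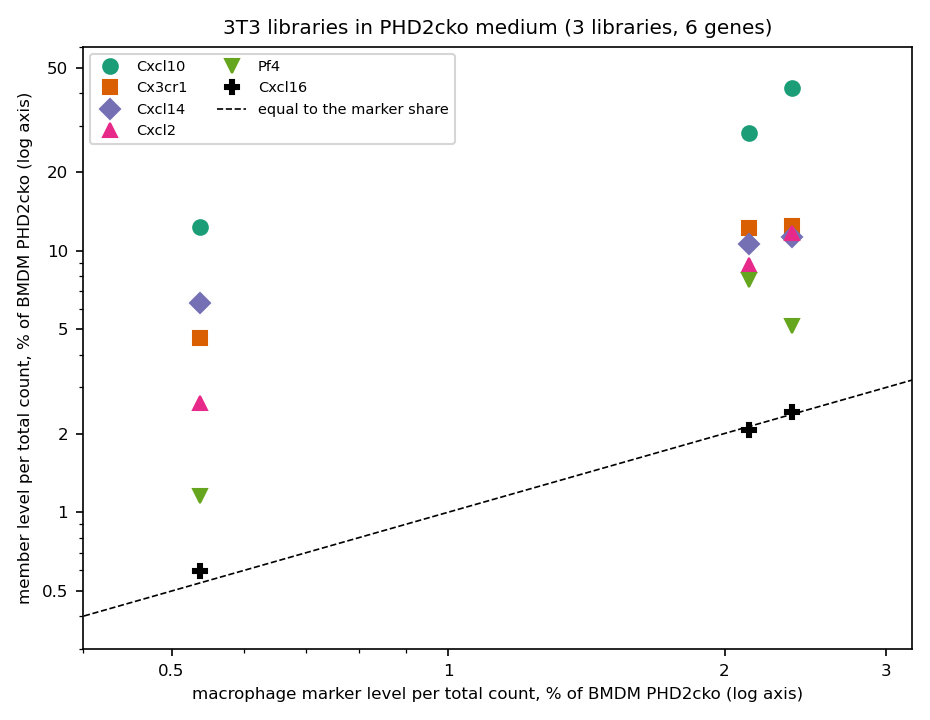
Level of the 6 macrophage transcripts in the 3 libraries of 3T3 in PHD2cko medium, as counts over the library total in percent of the BMDM PHD2cko mean (vertical, log axis), against the summed level of 23 macrophage markers on the same footing (horizontal, log axis). Each point is 1 gene in 1 library and the dashed line marks equal percentages. Cxcl16 lies by the line in all 3 libraries, and Cxcl10 lies highest, at 12.3 to 41.9%.

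Of the receptors, Cxcr4 and Cxcr3 had more counts in PHD2cko medium, and as both passed the filter only through the BMDM libraries no test is given. Cxcr4 had 1, 4 and 1 counts in WT medium and 42, 6 and 27 in PHD2cko medium, again lowest in replicate 2, and Cxcr3 had 0 counts and then 4, 5 and 2, at least 1.41-fold higher. Ackr3, the fibroblast receptor of Cxcl12, was at 23.3 ± 0.739 and 22.6 ± 1.29 CPM and did not pass (adjusted p = 0.764). Of 6 tested proteases and binding partners 2 were higher and 1 lower, beside 8.93% and 6.75% of all genes tested. Mmp9 rose from 8.8, 9.07 and 10.4 CPM to 31.2, 24.8 and 37.5 CPM (log2 fold change 1.73, adjusted p = 2.6e-05), Adam17 from 89.4 ± 5.71 to 103.9 ± 5.79 CPM (0.22, adjusted p = 0.0285), and Mmp2 fell from 939 ± 8.24 to 746.1 ± 9.88 CPM (-0.33, adjusted p = 0.00846). Of the other ligands Cxcl3 and Cxcl15 were tested and neither passed.

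The effects of the label in the 2 cell types were compared in a test of the difference (fibroblasts minus BMDMs). The test is not given for Cxcl2, Cxcl14 and Pf4, which were under the minimum of the filter in both fibroblast groups. The effect was more positive in fibroblasts for Cxcl10, Cxcl16 and Cx3cr1, as for 7.71% of all genes tested, and 4.58% had a more negative one. These 3 genes were under the minimum in 3T3 in WT medium, so nothing is read from their number. Cxcl10 was lower in macrophages labelled PHD2cko and higher in fibroblasts in PHD2cko medium, and the difference of the log2 fold changes was 4.39 (adjusted p = 2.2e-04). It had 5, 6 and 2 counts in 3T3 in WT medium. The macrophage marker share was also higher in PHD2cko medium, and its part in these differences was not tested beyond the subtraction. After subtraction Cxcl16 no longer passed this test (-1.55, adjusted p = 0.0951). For Cxcl12 and Cx3cl1 the differences of 0.61 and 0.98 did not pass (adjusted p = 0.555 and 0.105).

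For each gene the pair of genes with the most similar course over the 12 libraries was named, by Pearson correlation of log2(CPM + 1) after centring each cell type, as a description. All the libraries share their normalization and the 4 groups, so genes that move with a group correlate. Cxcl16 was most like Cd52 and the macrophage transcription factor gene Spi1 (r = 0.999 for both), and Cx3cr1 most like Lcp2 (0.993) and Ctsc (0.992). Cxcl10 was most like B3gnt3 (0.978) and Hal (0.969), and Pf4 most like Fat3 (0.975) and Itgax (0.968). Among the fibroblast transcripts Cxcl5 was most like Arf2 (0.966) and Atp6v1d (0.952), Cx3cl1 most like Smc6 (0.94) and S1pr3 (0.938), Cxcl12 most like Hoxc6 (0.89) and Gm15443 (0.877), and Cxcl1 most like Ndufab1 (0.888) and Gne (0.881). Cxcl14 was most like Rbpj (0.952) and Rnf141 (0.924), and Cxcl2 most like 9930012K11Rik (0.886) and Samd14 (0.872).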

How the data were processed

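The authors sequenced polyadenylated RNA as single reads, quantified it with kallisto on GRCm38 (version not given in the sources used here), and deposited a table of estimated counts per gene with no normalization. The values are whole numbers, so rounding before the test left them as they were. All 12 columns were matched to samples by their labels. Genes were kept with filterByExpr, scaled by TMM and fitted over the 4 groups with the quasi-likelihood test of edgeR 4.0.16 in R 4.3.3 (two-sided, Benjamini-Hochberg adjusted over all genes kept, threshold 0.05). Alternatives used DESeq2 1.42.0, its size factors, limma 3.58.1 (voom, the study's method), other filters, each cell type alone, a replicate block, each library left out, and a subtracted macrophage share. The macrophage share and the members' percentages of BMDM levels use counts over each library's total, and all other levels use TMM. The fit was tested on simulated data. Totals of 15516465 to 25199770 a library put 3 counts at 0.109 to 0.205 CPM. All 10 members were named; for each, the 2 most similar genes with a mean of at least 1 CPM were added by the rule stated in the text. The members, gene lists and tests were chosen with earlier results of these data known. Exon lengths came from GENCODE M21, and no protein sequence was used here. Some background and marker items are not reported here.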

Additional observations from a re-analysis of the deposited data

Results flagged for a closer look

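The effect of the PHD2cko label (log2) in fibroblasts minus that in BMDMs differed from 0 in the edgeR test for Cxcl10 (4.39), Cxcl16 (3.32) and Cx3cr1 (3.63). All 3 are macrophage transcripts that were under the minimum of the low-count filter in 3T3 in WT medium, so nothing is read from their number. The macrophage marker share of the same fibroblast libraries, from counts over each library's total, was 0.0669 ± 0.00478% in WT medium and 1.68 ± 0.995% in PHD2cko medium. With that share subtracted, Cxcl16 (-1.55, adjusted p = 0.0951) no longer passed, and Cxcl10 (4.35) and Cx3cr1 (3.50) still passed. A marker above the summed share would keep a remainder too, so this sets neither gene apart from macrophage RNA. Without 3T3 in WT medium replicate 1, the library that stood apart, all 3 passed, with adjusted p of 2.7e-04 for Cxcl10, 0.0017 for Cxcl16 and 3.7e-04 for Cx3cr1. Cxcl2, Cxcl14 and Pf4 had too few counts in the fibroblasts for a test of the difference. Dixon's test was not used on these groups of 3 libraries.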

How the results depend on the processing

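In BMDMs the count of 2 members past the threshold went to 1 with the replicate block and was 1 in each fit that left out 1 of the 6 libraries, the lost member being Pf4 each time (adjusted p = 0.0681 with the block). It rose to 3, with Cx3cr1 lower, under limma-voom and with the 6 BMDM libraries fitted alone. Over all genes the main fit called 483 higher and 478 lower of 14285, and limma-voom 497 and 568. The 6 BMDM libraries alone gave 1202 and 1332 of 12282, and the block 395 and 420. Fits without 1 library gave 261 to 332 higher and 266 to 350 lower. In fibroblasts the count was 9 over all 12 libraries, with Cxcl2, Cxcl14 and Pf4, for which no test is given above, and 4 with the 6 libraries fitted alone, where these 3 were not tested, so the counts cover different genes. Over all genes these fits called 1276 higher and 964 lower of 14285, and 566 and 346 of 13379. The requirement of 10 counts in every library left no member to test. No value that changed sign was past the threshold under the alternative. In BMDMs, leaving out 1 library gave -0.25 to 0.45 for Cxcl1, -0.50 to 0.074 for Cxcl2, -0.77 to 0.082 for Cxcl12 and -0.20 to 0.049 for Cxcl14. Cxcl1 ran from -0.55 to 0.0015 in fibroblasts and from -0.71 to 0.079 in the difference between cell types. With the macrophage share subtracted, Cxcl16 was at -1.61 in fibroblasts and -1.55 in the difference. Same-numbered libraries did not deviate together (correlation -0.103 to 0.0524, and 2 of 12 libraries correlated best with their own number), so the numbers were not taken as pairs; the block changed no other call on a member. The share difference of 1.61 percentage points was 1.31 with TMM scaling, 2.42 as a median over markers and 1.27 to 2.18 without 1 library. Cxcl10 in BMDMs and Cx3cl1 in fibroblasts kept their calls under every alternative run that tested them, with adjusted p up to 0.00433 and 0.0124. Depth limits Cxcl2, Cxcl14 and Pf4 in fibroblasts, which had at most 32 counts a library.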
